A study of Mus musculus with 8 samples.

Results

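The genes described here encode heat shock proteins, their J-domain partners, the subunits of the cytosolic chaperonin, the BAG co-chaperones and 2 heat shock transcription factors. They were chosen by symbol alone, as every gene of the deposited table whose symbol carries an Hspa, Hspb, Hspd, Hspe, Hsph1, Hsp90, Dnaja, Dnajb, Dnajc, Cct, Bag1 to Bag6, Hsf1, Hsf2 or Tcp1 name. This gave 88 of 18257 genes: 26 heat shock proteins, 44 J-domain proteins, 10 genes with a Cct name or Tcp1, 6 BAG genes and 2 factors. Of these, 80 passed the filter on low counts and were tested, and 8 did not. RNA was measured in wild-type mouse morulae cultured in KSOM medium with 2 µM A485, which blocks the acetyltransferases p300 and CBP, and in wild-type morulae cultured in the same medium with 0.1% DMSO, the solvent control. Both treatments began at the 4-cell stage. Each group had 4 libraries, each made from 3 embryos without zona pellucida that were pooled as 1 biological replicate. The culture protocol runs on to the blastocyst stage, while the samples carry the label of morulae.

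Chaperones bind unfolded or partly folded proteins and keep them from aggregating. HSP70 proteins do so in cycles of ATP hydrolysis that J-domain proteins start and nucleotide exchange factors (HSP110 and BAG proteins) end, HSP90 proteins act on more mature clients, and ring-shaped chaperonins enclose a client in a cavity. HSF1 is the main activator of the heat shock genes in the cytosol and nucleus, whereas the ER chaperones are controlled mainly by the unfolded protein response. The mouse embryo makes Hspa1a and Hspa1b RNA among its first transcripts when its genome is activated, and the constitutive Hspa8 and HSP90 genes are abundant in cleavage-stage embryos.

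Total estimated counts ranged from 23641781 to 25677701 per library. The summed level of 10 genes that mark the morula was 1867 to 2799 CPM in A485 libraries and 4342 to 5337 CPM in control libraries, and 9 of the 10 were lower with A485. CPM values here use TMM-scaled library sizes. Of 11 genes that the embryo transcribes transiently at the 2-cell stage, 4 were below the filter on low counts and 7 were tested. All 7 were higher, beside 29.7% of all tested genes. Their control means were at most 2.09 CPM, so they could pass the filter through the A485 libraries, and this count does not test direction. The sum over the 11 genes split the A485 group, with 312.7 and 320.6 CPM in A485 libraries 1 and 2 and 27.1 and 44.5 CPM in A485 libraries 3 and 4. Control libraries had 2.83 to 12.6 CPM. Summed oocyte and polar body markers were 14.4 to 24.7 CPM with A485 and 12.9 to 17.9 CPM in controls. Summed cumulus and granulosa cell markers were 1.03 to 3.78 CPM with A485 and 0 to 0.176 CPM in controls, where 7 of the 10 markers were at 0 in every library. The part of the 2-cell genes and of the split within the A485 group in the results was not tested. Because each library is bulk RNA of several embryos, fewer cells of a type and less RNA per cell cannot be told apart.

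The upstream sequences of a few members are shown because results below turn on these genes and their windows hold a motif of one of those regulators. They are the bases that end just before the transcription start, from RefSeq on GRCm38.p6, read 5′ to 3′ on the gene's strand. Heat shock factors bind inverted repeats of the pentamer NGAAN, which leaves 2 free bases between GAA and TTC, so GAANNTTC and TTCNNGAA were searched. In the Hspb1, Hspa1a and Hspa1b windows of 150 bases the capitals mark GAANNTTC. The windows lie at chr5:135887769-135887918 (plus strand), chr17:34972157-34972306 (minus strand) and chr17:34959239-34959388 (minus strand).
Hspb1: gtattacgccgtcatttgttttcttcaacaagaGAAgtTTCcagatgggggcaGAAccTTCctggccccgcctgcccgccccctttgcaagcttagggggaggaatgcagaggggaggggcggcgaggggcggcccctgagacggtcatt
Hspa1a: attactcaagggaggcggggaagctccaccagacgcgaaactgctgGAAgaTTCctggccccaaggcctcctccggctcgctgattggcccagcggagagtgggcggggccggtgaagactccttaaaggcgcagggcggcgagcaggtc
Hspa1b: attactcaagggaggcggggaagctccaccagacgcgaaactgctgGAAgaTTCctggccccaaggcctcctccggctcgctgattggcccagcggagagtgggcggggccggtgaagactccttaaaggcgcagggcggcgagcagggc
Hspb1 held 2 such pairs, which start 117 and 97 bases before the transcription start. Hspa1a and Hspa1b held 1 each, at 104 bases before it, and these 2 neighbouring genes shared 149 of 150 bases (99.3%). The mitochondrial chaperonin genes Hspd1 and Hspe1 are transcribed away from each other, and 215 bases lie between the Hspe1 start and one annotated Hspd1 start. Another annotated Hspd1 start lies beyond the Hspe1 start, so this stretch is also inside the Hspd1 span. Its 30 bases at chr1:55088053-55088082 (plus strand) hold a run of alternating pentamers, in capitals.
Hspd1-Hspe1 element: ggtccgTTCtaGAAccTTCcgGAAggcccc
For the ER chaperones the motif was the ER stress response element (CCAAT and CCACG with 9 free bases between), whose letters are in capitals in the windows of Dnajc3 at chr14:118937782-118937931 (plus strand), Hspa5 at chr2:34771940-34772089 (plus strand) and Hsp90b1 at chr10:86705445-86705694 (minus strand, 250 bases). Hsp90b1 held 1 copy on each strand.
Dnajc3: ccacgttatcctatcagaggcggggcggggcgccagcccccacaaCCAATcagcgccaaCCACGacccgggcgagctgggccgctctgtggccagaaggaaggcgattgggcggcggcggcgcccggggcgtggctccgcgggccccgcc
Hspa5: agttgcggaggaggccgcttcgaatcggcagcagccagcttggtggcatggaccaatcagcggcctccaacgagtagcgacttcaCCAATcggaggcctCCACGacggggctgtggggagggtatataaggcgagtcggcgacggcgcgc
Hsp90b1: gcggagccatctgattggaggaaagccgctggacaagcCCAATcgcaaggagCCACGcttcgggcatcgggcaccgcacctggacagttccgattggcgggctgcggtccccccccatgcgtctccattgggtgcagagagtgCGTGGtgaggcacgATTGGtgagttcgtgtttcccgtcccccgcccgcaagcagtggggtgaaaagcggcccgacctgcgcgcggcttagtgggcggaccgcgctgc
Over windows of 250 bases before to 50 bases after the start, searched on both strands, 21 of the 71 members with a RefSeq window held a heat shock pair in either order (29.6%), as did 17.0% of 27025 genes. The overlapping triplet of pentamers was in 4 members, Dnajb6, Hspd1, Hspe1 and Hsph1, or 5.63%, against 0.662% of genes. The ER element was in the 3 members printed, or 4.23%, against 0.137% of genes. By the test described below, the 21 members with a pair were 6 higher, 6 lower, 7 not called and 2 not tested. The 50 members with a searched window and no pair were 6 higher, 13 lower, 26 not called and 5 not tested. Of the 4 members with the triplet, 1 was lower (Hsph1) and 3 were not called. Pairs not printed lie in genes called lower, such as Dnaja1 and Hsph1, and in genes called higher, such as Dnajb4 and Dnajc10. These matches are descriptions of the letters in the windows and not of binding.

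With A485, 16 of the 80 tested members were higher and 27 were lower than in controls, by edgeR's quasi-likelihood test at an adjusted p of 0.05. Of all 12936 tested genes, 29.7% were higher and 25% were lower (54.7% in either direction), so members were called higher less often (20.0%) and lower more often (33.8%) than genes at large. That difference in shares was not tested. The median log2 fold change was -0.20 over the members and 0.08 over all genes, and the members ranged from -2.11 for Dnajc15 to 5.27 for Hspb1. In 18 members every A485 library was above every control library and in 30 members below (26.9% and 24.6% of all genes). Changes of at least 2-fold were 14 rises and 6 falls, beside 22.2% of all genes higher and 14.3% lower by that much. The split depends on the scaling: with total counts in place of TMM factors, 23 members were higher and 18 lower. All genes moved too, to 4930 of 12936 higher and 2300 lower. Rises made up 56.1% of member calls and 68.2% of all calls with total counts, and 37.2% and 54.2% with TMM factors. A change of factors shifts all genes by nearly the same amount, so this comparison could not reverse the lean of the members beside all genes. The median of all genes moved to 0.37 and that of the members to 0.09.

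**Figure D1:**
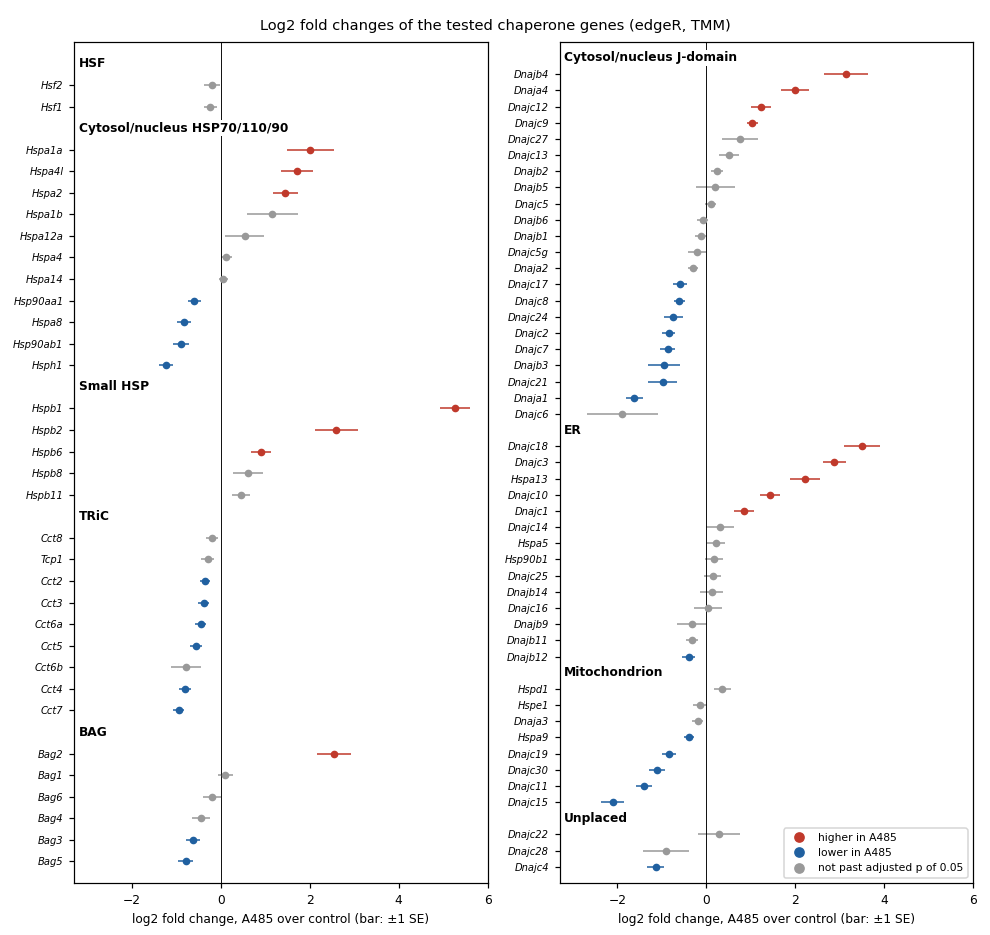
Log2 fold change of A485 over control for each of the 80 tested members, grouped by compartment or family. Points are edgeR estimates, bars are ±1 SE, and colour shows whether the adjusted p was below 0.05. Hspb1 stands at 5.27, the tested small heat shock proteins lie right of 0, and the TRiC subunits and mitochondrial J-domain genes lie left of it with TMM factors.

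Members were also counted by level, as a mean over both groups, so a gene's own change bears on its class. Levels between genes are given in TPM, which counts per length. Of the 25 members with a mean of at least 100 TPM over all 8 libraries, 1 was higher and 15 were lower with A485. The higher one was Hspb1, which reached that level through the A485 group, with 4359 TPM with A485 and 89.4 TPM in controls. Of the 26 members below 10 TPM, 11 were higher and 1 was lower. All tested genes leaned the same way: of 1324 genes at 100 TPM or more 17.0% were higher and 44.4% lower, and of 8273 genes below 10 TPM 33.4% were higher and 17.4% lower. The summed level of all 88 members was 21790 ± 2140 TPM with A485 and 22870 ± 1300 TPM in controls (SD, n = 4 each), which overlap. The sum in CPM was 31960 to 38340 in A485 libraries and 49340 to 57380 in control libraries, without overlap, so whether the summed level was lower with A485 depends on the scale. As ratios of A485 to control, TPM ran above CPM by 1.25 times for the median member (1.14 to 2.70), and calls of higher or lower were made on counts with TMM factors. Hspa8 made up 31.3 ± 3.37% of the sum in TPM with A485 and 42.3 ± 1.80% in controls, and Hspb1 19.6 ± 5.99% with A485 and 0.394 ± 0.132% in controls.

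**Figure D2:**
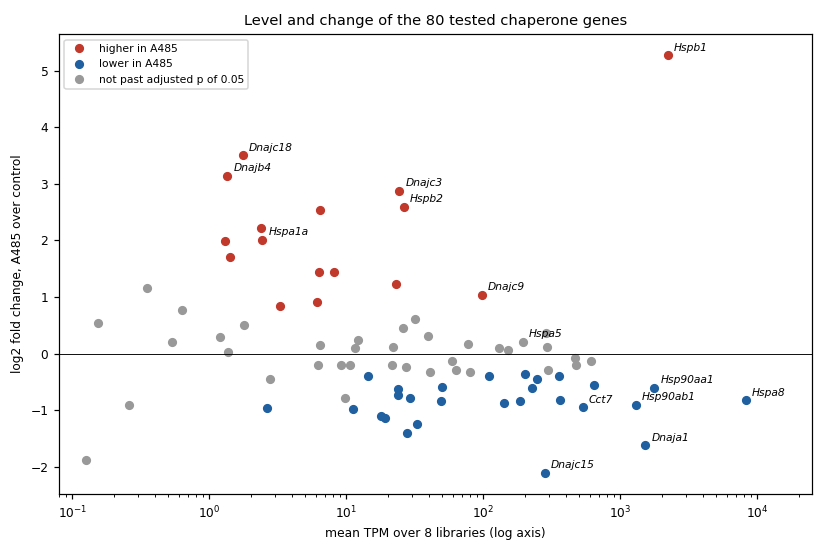
Mean TPM over all 8 libraries (log axis) against the log2 fold change of A485 over control for the 80 tested members, red where called higher, blue where called lower and grey where not called. Among members of at least 100 TPM, Hspb1 alone was called higher and 15 were called lower.

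The genes of the 2 heat shock factors did not pass the test. Hsf1, the factor that drives the heat shock response, had 42.2, 45.9, 52.3 and 52.3 CPM in A485 libraries 1 to 4, against 59.7, 49.97, 62.7 and 54.3 CPM in control libraries 1 to 4, and its log2 fold change was -0.23 ± 0.14 (SE; edgeR adjusted p = 0.171). Hsf2, a factor active in germ cells and early embryos, had 16.9, 23.3, 25.9 and 28.01 CPM with A485 and 28.8, 24.7, 30.2 and 24.7 CPM in controls (-0.20 ± 0.18, edgeR adjusted p = 0.363). The A485 and control values of both genes overlap, and with total-count scaling both estimates turn positive, at 0.06 for Hsf1 and 0.095 for Hsf2. Of 8 other tested genes of heat shock factors and stress partners, 4 were higher, 0 were lower and 4 were not called, with a median log2 fold change of 0.45. Among all tested genes 29.7% were higher and 25% lower. Sqstm1, an autophagy receptor, had 1025 ± 184.4 CPM with A485 and 417 ± 83.3 CPM in controls (SD, n = 4 each), a log2 change of 1.30. Cryab, encoding the small heat shock protein alphaB-crystallin, had 370.2 ± 135 CPM with A485 and 133.9 ± 46.1 CPM in controls (1.47). Hsf4, best known for its role in the lens, was near 1 CPM with A485 and about 0.22 CPM in controls (2.35). At that control level Hsf4 could pass the filter on low counts through the A485 libraries, so its place among the 4 higher genes does not test direction.

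The abundant cytosolic genes Hspa8, Hsp90aa1 and Hsp90ab1 and the HSP110 gene Hsph1 fell with A485, while Hspa1a, Hspa2 and Hspa4l, all at low levels, rose. Among 11 tested HSP70, HSP110 and HSP90 members of the cytosol and nucleus, 4 were lower, 3 were higher and 4 were not called. These shares, 36.4% lower and 27.3% higher, stand beside 25% and 29.7% of all tested genes. Hspa8, the constitutive HSP70, had 13060, 10330, 9908 and 11530 CPM in A485 libraries 1 to 4, against 18650, 22700, 18190 and 19750 CPM in control libraries 1 to 4. Every A485 library lay below every control library, and the log2 fold change was -0.82 ± 0.16 (SE; edgeR adjusted p = 0.00135). By TPM Hspa8 ranked 10 to 12 among all genes in A485 libraries and 3 or 4 in control libraries.

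Hsp90ab1, the constitutive HSP90, had 2803, 1922, 1556 and 2074 CPM with A485 and 3436, 4043, 3747 and 4353 CPM in controls (-0.90 ± 0.19, edgeR adjusted p = 0.0023). Hsp90aa1, the HSP90 isoform that heat also induces, had 3861, 3152, 3211 and 4411 CPM with A485 and 5430, 5234, 5602 and 5920 CPM in controls (-0.60 ± 0.15, edgeR adjusted p = 0.00639). For both HSP90 genes the groups do not overlap. In TPM, Hsp90aa1 was 1.57 ± 0.310 times Hsp90ab1 with A485 and 1.25 ± 0.112 times Hsp90ab1 in controls (SD, n = 4 each), ranges that overlap. Hsph1, an HSP110 exchange factor for HSP70, had 73.3, 51.2, 56.1 and 76.9 CPM with A485 and 137.6, 160.2, 165.3 and 144.6 CPM in controls. Its groups are well apart, with a log2 fold change of -1.24 ± 0.16 (edgeR adjusted p = 0.000155).

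The other HSP110 genes went other ways: Hspa4 was not called (0.12, edgeR adjusted p = 0.438), and Hspa4l, known mainly from testis, had 5.54, 8.09, 12.7 and 11.2 CPM with A485 and 2.47, 4.38, 3.12 and 1.48 CPM in controls. Hspa4l rose by 1.71 ± 0.37 on the log2 scale (edgeR adjusted p = 0.00282), and each A485 library was above each control library. Hspa2, an HSP70 best known from spermatogenic cells, rose by 1.45 ± 0.28 (edgeR adjusted p = 0.0016). Hspa14, a ribosome-associated HSP70, and Hspa12a were not called, at 0.06 and 0.54.

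The stress-inducible HSP70 genes Hspa1a and Hspa1b stayed at low levels in every library. Hspa1a had 21.9, 4.83, 7.38 and 3.99 CPM in A485 libraries 1 to 4, against 2.33, 3.25, 1.71 and 2.13 CPM in control libraries 1 to 4. All A485 libraries were above all control libraries, and A485 library 1 was far above the rest. A485 library 2, which like library 1 had high 2-cell gene levels, lay between A485 libraries 3 and 4, so Hspa1a did not follow that division. The log2 fold change was 2.01 ± 0.53 (SE; edgeR adjusted p = 0.00882), and 1.19 without A485 library 1. Hspa1b had 1.76, 0.695, 0.851 and 1.44 CPM with A485 and 0.220, 0.903, 0.750 and 0.232 CPM in controls, which overlap (1.16 ± 0.58, edgeR adjusted p = 0.113). Because the 2 genes are near-identical copies, the counting may have split their reads unevenly. Their sum was 23.64, 5.52, 8.23 and 5.43 CPM with A485 and 2.55, 4.15, 2.46 and 2.37 CPM in controls.

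**Figure D3:**
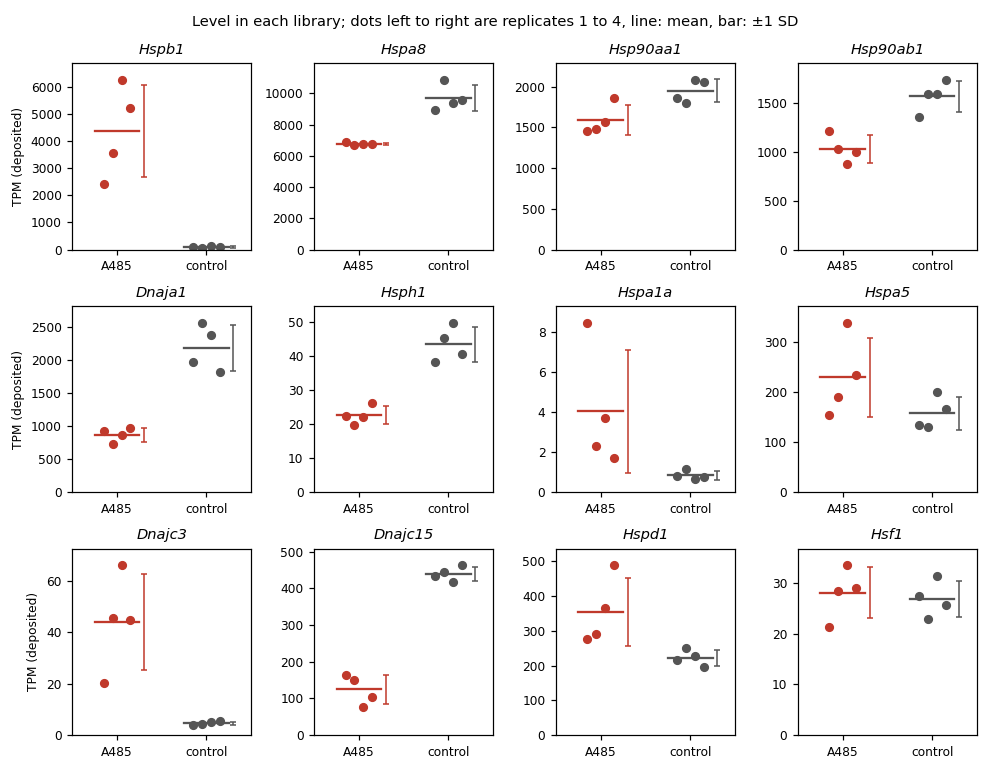
TPM of selected members in each library, A485 left and control right, with lines at the group means and a separate linear axis starting at 0 for each gene. Hspa8 and Dnaja1 lie lower in all A485 libraries, Hspb1 and Dnajc3 higher, and the groups of Hspa5 and Hsf1 overlap; the groups of Hspd1 are apart in TPM although they overlap in CPM.

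J-domain partners of the cytosol and nucleus went both ways, with 4 of 22 tested members higher, 8 lower and 10 not called (median -0.17). As shares, 18.2% were higher and 36.4% lower, beside 29.7% and 25% of all tested genes. Dnaja1, the main farnesylated partner of HSC70, had 2942, 1874, 2124 and 2762 CPM in A485 libraries 1 to 4, against 6915, 8951, 7708 and 6265 CPM in control libraries 1 to 4. Every A485 value was less than the lowest control value, and the log2 fold change was -1.62 ± 0.19 (SE; edgeR adjusted p = 9.2e-05). In TPM, Dnaja1 was 0.129 ± 0.0147 of Hspa8 with A485 and 0.225 ± 0.0269 of Hspa8 in controls (SD, n = 4 each), and the ratio was lower in each A485 library than in each control library. Its relatives did otherwise: Dnaja2 was not called (-0.30, edgeR adjusted p = 0.0518), and Dnaja4 had 4.02, 4.43, 7.21 and 4.88 CPM with A485 and 1.497, 1.35, 0.833 and 1.48 CPM in controls. The Dnaja4 rise was 1.99 ± 0.31 on the log2 scale (edgeR adjusted p = 0.000495).

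Dnajb1, the J-domain protein that heat shock induces through HSF1, had 172.1, 145.1, 163.0 and 130.4 CPM with A485 and 176.5, 183.1, 150.3 and 155.2 CPM in controls. Dnajb6, which holds back protein aggregation, had 635.8, 648.7, 699.5 and 752.4 CPM with A485 and 741.3, 738.2, 703.3 and 717.1 CPM in controls. Both genes overlap between groups and were not called (Dnajb1 -0.12 ± 0.13 and Dnajb6 -0.08 ± 0.11; edgeR adjusted p = 0.446 and 0.551), and both estimates turn positive with total-count scaling, at 0.17 and 0.21. Dnajb4, a partner of HSP70 related to Dnajb1, had 3.12, 2.89, 10.5 and 7.87 CPM with A485 and 0.969, 0.587, 0.583 and 0.603 CPM in controls. Its groups are apart, with the highest values in A485 libraries 3 and 4 (3.15 ± 0.49, edgeR adjusted p = 0.000432).

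Among the J-domain genes with specialised tasks, Dnajc9, a histone chaperone, rose by 1.04 ± 0.13 on the log2 scale (edgeR adjusted p = 0.000123), and Dnajc12, a partner of aromatic amino acid hydroxylases, by 1.24 (edgeR adjusted p = 0.00103). Dnajc2, which acts at the ribosome, fell by 0.84, Dnajc7, which bridges HSP70 and HSP90, by 0.87, Dnajc8, found with the spliceosome, by 0.61 and Dnajc24, needed for diphthamide synthesis, by 0.74. Dnajc21, needed for late steps of 60S ribosome maturation, had 24.6, 12.7, 6.84 and 12.1 CPM with A485 and 27.1, 32.6, 24.9 and 26.5 CPM in controls. The A485 libraries lie below the controls, closely so for A485 library 1 (-0.98 ± 0.33, edgeR adjusted p = 0.0259), and the call was lost without A485 library 2 (0.0599), A485 library 4 (0.0608) or control library 2 (0.0792). The remaining falls were Dnajc17 (-0.59) and Dnajb3 (-0.95). Under total-count scaling Dnajc17 was at -0.31 (edgeR adjusted p = 0.0721). The Dnajb3 call was lost in 11 of 18 alternative settings. Dnajb3 overlaps Ugt1a genes in the annotation. Its estimated counts were whole in every library, and whether it shares reads with them was not tested.

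Of 20 tested co-chaperones of HSP70 and HSP90 outside the family, 10 were lower, 1 was higher and 9 were not called, with a median of -0.31 on the log2 scale. These counts stand beside 25% lower and 29.7% higher among all tested genes. Of all genes of at least 100 TPM, 44.4% were lower and 17.0% higher, and the co-chaperones were not sorted by level. Sugt1, an HSP90 co-chaperone that also serves the kinetochore, had 351.4 ± 96.9 CPM with A485 and 1444 ± 16.5 CPM in controls (SD, n = 4 each), a log2 change of -2.04. Ttc4, which binds both HSP70 and HSP90, had 40.02 ± 4.997 CPM with A485 and 74.3 ± 4.23 CPM in controls (-0.89). Nudc, another HSP90 co-chaperone, had 337.1 ± 50.7 CPM with A485 and 609.5 ± 33.1 CPM in controls (-0.86). Stip1, which links HSP70 to HSP90 and was singled out after its values were seen, had 996.1 ± 378.5 CPM with A485 and 2307 ± 280.8 CPM in controls (-1.21).

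The small heat shock proteins were the group with the largest rise, and Hspb1 carried it. Counted by their Hspb names, Hspb11 included, 5 members were tested. Of these 3 were higher (60.0%, beside 29.7% of all tested genes) and 0 were lower (25% of all). The other 2 were not called, and the median was 0.91. Hspb1, an ATP-independent chaperone that holds unfolded proteins and whose upstream window is printed above, had 1709, 2026, 3386 and 3287 CPM in A485 libraries 1 to 4, against 71.8, 38.9, 85.6 and 73.0 CPM in control libraries 1 to 4. The lowest A485 library was far above the highest control library, and the change was 38.6-fold (log2 5.27 ± 0.34, edgeR adjusted p = 8e-06). In TPM, Hspb1 ranked 84, 43, 14 and 22 among all genes in A485 libraries 1 to 4 and 1352, 1964, 1188 and 1303 in control libraries 1 to 4.

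Hspb2, known from heart and skeletal muscle, had 7.35, 14.3, 21.7 and 28.3 CPM with A485 and 4.80, 1.58, 3.75 and 1.67 CPM in controls (2.60 ± 0.48, edgeR adjusted p = 0.00134). Hspb2 lies inside the annotated span of Cryab, which also rose, and reads of the 2 genes cannot be told apart there because the use of strand is not given. Hspb6, another muscle small heat shock protein, rose by 0.91 ± 0.23 (edgeR adjusted p = 0.00639). Hspb8, the partner of BAG3 in selective autophagy, had 28.1, 47.3, 73.0 and 79.5 CPM with A485 and 24.6, 30.4, 42.1 and 51.6 CPM in controls. These ranges overlap and the test did not call Hspb8 (0.62 ± 0.33, edgeR adjusted p = 0.142), but without A485 library 1 the value was 0.83 (edgeR adjusted p = 0.0247). Hspb11, a subunit of the intraflagellar transport machinery despite its name, was not called (0.45, edgeR adjusted p = 0.0902). Summed over the group, levels were 4489 ± 1747 TPM with A485 and 139.6 ± 31.6 TPM in controls (SD, n = 4 each).

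The BAG genes, whose proteins release substrate from HSP70, showed 1 rise and 2 falls among 6. That is 16.7% and 33.3%, beside 29.7% higher and 25% lower among all tested genes. Bag2, an inhibitor of the ubiquitin ligase CHIP, had 7.88, 12.4, 13.8 and 28.8 CPM in A485 libraries 1 to 4, against 3.35, 2.21, 2.92 and 2.32 CPM in control libraries 1 to 4 (2.54 ± 0.38, edgeR adjusted p = 0.000387). Bag3, the stress-inducible member and partner of the small heat shock proteins, had 42.5, 48.9, 39.5 and 45.5 CPM with A485 and 55.7, 78.9, 61.5 and 77.4 CPM in controls (-0.63 ± 0.15, edgeR adjusted p = 0.00571). Each A485 library was below each control library, but the call was lost with total-count scaling (-0.34, edgeR adjusted p = 0.0827). Bag5 had 53.4, 45.2, 38.5 and 32.3 CPM with A485 and 80.8, 69.2, 74.3 and 68.5 CPM in controls (-0.79 ± 0.17, edgeR adjusted p = 0.00269). Bag1, an exchange factor of HSC70, had 124.8, 136.3, 139.2 and 193.1 CPM with A485 and 113.7, 154.8, 158.5 and 127.2 CPM in controls, which overlap (0.10 ± 0.17, edgeR adjusted p = 0.644). Bag4 and Bag6 were not called, at -0.45 and -0.20.

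Every tested subunit of the cytosolic chaperonin TRiC, the ring of 8 different subunits that folds actin and tubulin, had a negative estimate except Cct8 under total-count scaling. The test called 6 of 9 tested genes lower (66.7%, median -0.46), beside 25% of all tested genes. Among all genes of at least 100 TPM, the level of every TRiC gene but Cct6b, 44.4% were lower. The largest fall was that of Cct7, with 868.5, 774.0, 730.3 and 857.4 CPM in A485 libraries 1 to 4, against 1508, 1612, 1601 and 1512 CPM in control libraries 1 to 4 (-0.95 ± 0.12, edgeR adjusted p = 0.000132). Cct4 followed with 531.2, 436.4, 376.2 and 488.5 CPM with A485 and 761.5, 823.0, 851.1 and 786.0 CPM in controls (-0.81 ± 0.14, edgeR adjusted p = 0.00064). In both genes the groups are clearly apart. Cct5 had 935.9, 765.7, 724.3 and 1048 CPM with A485 and 1248, 1294, 1311 and 1264 CPM in controls (-0.56 ± 0.14, edgeR adjusted p = 0.00738). Cct2, Cct3 and Cct6a fell by 0.36, 0.39 and 0.46, and Cct8, Tcp1 and the testis-type subunit Cct6b were not called, at -0.20, -0.30 and -0.78.

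The size of this fall rests on the scaling. A change of factors shifts all genes by nearly the same amount, so the distance of TRiC from genes at large could hardly change. All genes of at least 100 TPM had a median of -0.31 with TMM factors. With total counts the median over the TRiC genes was -0.17 (-0.46 with TMM factors), and that of all genes was 0.37 (0.08). Only Cct7 (-0.67) and Cct4 (-0.54) were then called, Cct5 stood at -0.28 (edgeR adjusted p = 0.051) and Cct8 at 0.085. The Cct2 call was also lost without A485 library 2 or control library 2, and the Cct3 call without A485 library 2. The 8 subunits other than Cct6b spread in TPM with a coefficient of variation of 37.7 ± 3.04% with A485 and 42.6 ± 0.512% in controls (SD, n = 4 each). Prefoldin hands clients to TRiC, and tubulin cofactors take tubulin from it. Of 14 such genes tested, 4 were lower (28.6%, beside 25% of all tested genes) and 2 higher (14.3%, beside 29.7%). The lower ones were all prefoldin subunits (Pfdn2 -1.12, Pfdn4 -0.94, Pfdn5 -0.94 and Pfdn6 -0.92), and the higher ones were the cofactors Tbca (1.19) and Tbce (0.86). Pfdn4 had 39.3 ± 3.25 CPM with A485 and 75.4 ± 5.50 CPM in controls, and Tbca had 146.5 ± 31.9 CPM with A485 and 64.0 ± 10.1 CPM in controls (SD, n = 4 each).

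**Figure D4:**
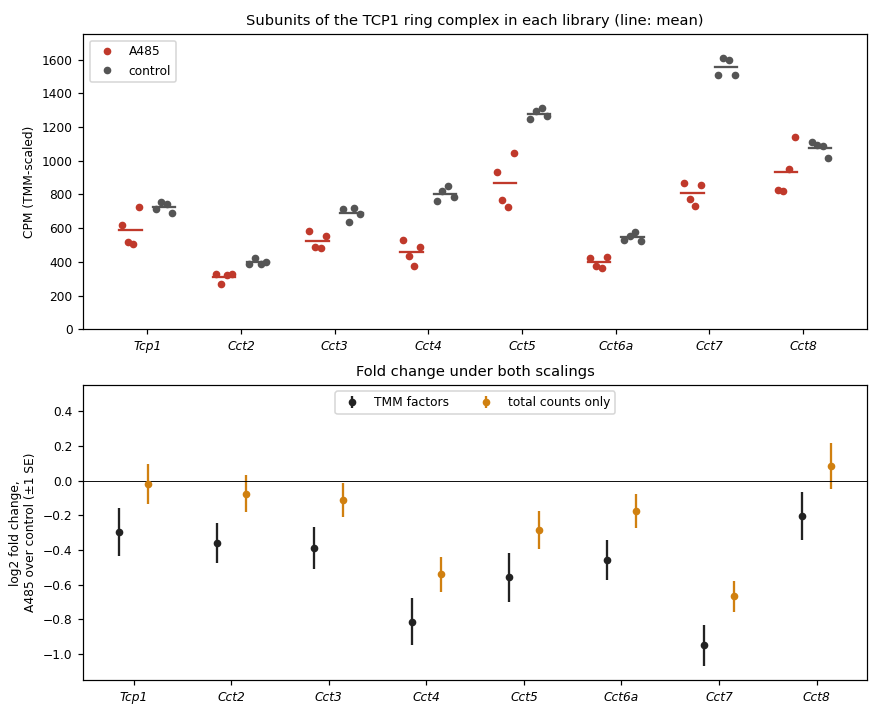
Upper panel: CPM of the 8 TRiC subunits in each library (A485 left, control right, lines at the means). Lower panel: log2 fold change ±1 SE with TMM factors and with total counts only. Cct7 and Cct4 are lower with A485 under both scalings, and Cct8 is at -0.20 under one and 0.085 under the other.

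Of 14 tested ER members, 5 were higher, 1 was lower and 8 were not called (median 0.19). The share called higher, 35.7%, is near the 29.7% of all tested genes, and the share called lower was 7.14%, beside 25%. Their summed level was 912.4 ± 127.1 TPM with A485 and 654.8 ± 58.4 TPM in controls (SD, n = 4 each), while in CPM the sums overlap, at 3128 to 4840 with A485 and 3090 to 4126 in controls. The members called higher were Dnajc18, Dnajc3, Hspa13, Dnajc10 and Dnajc1. Hspa5, which encodes BiP, had 364.3, 361.6, 614.9 and 492.5 CPM in A485 libraries 1 to 4, against 345.3, 335.1, 479.1 and 420.7 CPM in control libraries 1 to 4. Hsp90b1, which encodes GRP94, had 143.7, 161.3, 235.7 and 246.0 CPM with A485 and 162.2, 135.5, 220.3 and 180.4 CPM in controls. Both genes overlap between groups and neither was called (Hspa5 0.21 ± 0.20 and Hsp90b1 0.17 ± 0.21; edgeR adjusted p = 0.38 and 0.509). The Hspa5 result depends on the split within the A485 group: without A485 libraries 1 and 2 it was called higher (0.47, edgeR adjusted p = 0.0355), and without A485 libraries 3 and 4 the estimate was -0.12.

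Dnajc3, also named p58IPK, an inhibitor of eIF2alpha kinases and a BiP partner, had 100.5, 183.0, 254.4 and 200.5 CPM with A485 and 22.6, 23.7, 25 and 28.9 CPM in controls. All A485 libraries were well above the controls, a 7.37-fold change (log2 2.88 ± 0.26, edgeR adjusted p = 2.6e-05). Dnajc3, Hspa5 and Hsp90b1, printed above, are the 3 members with the ER stress response element among those with a searched window, and 1 of the 3 was called. Dnajc18, a J-domain protein of the ER membrane, had 9.48, 11.9, 22.5 and 11.1 CPM with A485 and 0.573, 1.85, 1.42 and 0.974 CPM in controls (3.51 ± 0.41, edgeR adjusted p = 9.2e-05). Hspa13, a microsomal HSP70, rose by 2.22 ± 0.35, Dnajc10, a disulfide reductase of ER-associated degradation, by 1.44 ± 0.23 and Dnajc1, a BiP partner, by 0.84 ± 0.22.

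Dnajb9, a J-domain protein known as a target of the unfolded protein response, had 107.2, 50.9, 45.1 and 33.4 CPM in A485 libraries 1 to 4, against 93.1, 79.5, 70.5 and 51.4 CPM in control libraries 1 to 4. The groups overlap through A485 library 1 (-0.32 ± 0.34, edgeR adjusted p = 0.445), and without that library the value was -0.78 (edgeR adjusted p = 0.0124). Dnajb12, which acts in degradation at the ER membrane, had 22.3, 24.7, 23.4 and 18.3 CPM with A485 and 28.4, 32.5, 27.6 and 28.4 CPM in controls (-0.40 ± 0.15, edgeR adjusted p = 0.0424), a call lost in 12 of 18 alternative settings. Its relative Dnajb14, the most abundant ER J-domain gene here, had 3426, 3511, 1741 and 1778 CPM with A485 and 2066, 3074, 2182 and 2266 CPM in controls. A485 libraries 1 and 2 lie above all control libraries and A485 libraries 3 and 4 below them, the same division as for the 2-cell genes, and the estimate over all libraries was 0.13 ± 0.26 (edgeR adjusted p = 0.706). Without A485 libraries 1 and 2 it was -0.46 (edgeR adjusted p = 0.0391), and without A485 libraries 3 and 4 it was 0.53 (edgeR adjusted p = 0.0305). Dnajc14, singled out after its values were seen, showed the same division, with 382.4, 342.9, 149.4 and 140.9 CPM with A485 and 178.1, 250.8, 201.0 and 187.6 CPM in controls.

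Of 16 tested ER chaperones and folding enzymes outside the family, 7 were higher, 1 was lower (Hyou1, -0.56) and 8 were not called. The share higher was 43.8%, beside 29.7% of all tested genes, and the share lower 6.25%, beside 25%. Edem1, which marks misfolded glycoproteins for degradation, had 79.97 ± 28.1 CPM with A485 and 17.6 ± 1.197 CPM in controls (SD, n = 4 each; log2 2.19). P4hb, a protein disulfide isomerase, had 510.3 ± 68.1 CPM with A485 and 243.1 ± 15.9 CPM in controls (1.07), and Serpinh1, the collagen chaperone, had 15.1 ± 9.10 CPM with A485 and 0.849 ± 0.509 CPM in controls (4.14). Among 10 regulators of the unfolded protein response, 5 were higher, 1 was lower (Atf6, -0.48) and 4 were not called. The kinase gene Eif2ak3 changed by 2.16, the transcription factor gene Ddit3 by 2.29 and the pseudokinase gene Trib3 by 1.63 on the log2 scale, whereas Xbp1 was not called (-0.46, edgeR adjusted p = 0.235).

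In the mitochondrial class 4 of the 5 J-domain members fell and the chaperonin pair was not called. Of 8 tested members, 5 were lower, 0 were higher and 3 were not called (median -0.61). The share called lower was 62.5%, beside 25% of all tested genes, of which 29.7% were higher. These 8 members all had a mean above 10 TPM. Among all genes, 36.3% of those at 10 to 100 TPM and 44.4% of those at 100 TPM or more were lower. Dnajc15, a J-domain protein of the inner membrane import motor, had 74.0, 55.1, 26.9 and 41.9 CPM in A485 libraries 1 to 4, against 213.5, 221.9, 190.6 and 226.9 CPM in control libraries 1 to 4. This was the deepest fall of any member past the threshold, 4.31-fold, with the groups far apart (log2 -2.11 ± 0.27, edgeR adjusted p = 0.000155). Dnajc11, which associates with the complex that shapes cristae, had 50.7, 50.3, 33.1 and 33.4 CPM with A485 and 104.1, 130.9, 110.4 and 96.9 CPM in controls (-1.40 ± 0.19, edgeR adjusted p = 0.000192). Dnajc19, another import motor protein, fell by 0.84 ± 0.15 on the log2 scale, Dnajc30, a partner of ATP synthase, changed by -1.104 ± 0.18, and Dnaja3 was not called (-0.20). Dnajc19 and Dnajc30 overlap the genes Fxr1 and Bud23 in the annotation.

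Hspa9, the mitochondrial HSP70 that these J-domain proteins serve, had 276.5, 236.2, 255.0 and 286.5 CPM with A485 and 343.0, 338.9, 351.7 and 346.1 CPM in controls. The groups do not overlap (-0.39 ± 0.11, edgeR adjusted p = 0.0128), and with total-count scaling the call was lost (edgeR adjusted p = 0.39). Hspd1, the HSP60 ring subunit, had 587.2, 499.6, 601.2 and 932.7 CPM with A485 and 505.6, 586.4, 495.1 and 456.4 CPM in controls (0.36 ± 0.19, edgeR adjusted p = 0.136). Hspe1, its HSP10 lid, had 363.4, 280.6, 272.9 and 369.5 CPM with A485 and 355.2, 406.6, 277.5 and 376.3 CPM in controls (-0.14 ± 0.16, edgeR adjusted p = 0.488). In CPM both chaperonin genes overlap between groups, and Hspd1 was called higher with total-count scaling (0.64, edgeR adjusted p = 0.0116) and without A485 libraries 1 and 2 (0.57, edgeR adjusted p = 0.0189). The ratio of Hspe1 to Hspd1 in TPM was 1.90 ± 0.375 with A485 and 2.61 ± 0.403 in controls, with overlapping ranges. Their annotated spans also overlap each other. The estimated counts of both were whole in every library, and whether they share reads was not tested.

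Of 13 tested mitochondrial chaperone partners and proteases, 6 were lower, 2 were higher and 5 were not called (median -0.35). The shares of 46.2% lower and 15.4% higher stand beside 25% and 29.7% of all tested genes. Htra2, a protease of the intermembrane space, had 19.7 ± 4.66 CPM with A485 and 78.3 ± 7.41 CPM in controls (SD, n = 4 each; log2 -1.99). Clpp, the matrix protease, had 278.5 ± 45.6 CPM with A485 and 501.3 ± 28.4 CPM in controls (-0.85), and Pam16, which binds the J-domain proteins of the import motor, had 76.2 ± 21.2 CPM with A485 and 141.7 ± 6.79 CPM in controls (-0.89).

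The 8 members below the filter were Hspa12b, Hspa1l, Dnajb13, Dnajb8, Dnajc5b, Hspb3, Hspb9 and Cct8l1. Of the members with no compartment assigned, Dnajc4 fell by 1.14 ± 0.18 on the log2 scale (edgeR adjusted p = 0.000569), and Dnajc22 and Dnajc28 were not called. In the authors' deposited table, 46 of the 80 members have a q-value under 0.05, of which 43 were called here in the same direction and 3 (Dnajb11, Dnaja2 and Cct6b) were not. Of the 43 called members, 29 were called under all 18 alternative settings.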

How the data were processed

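Per the labels' protocols, polyadenylated RNA of 3 pooled embryos per library became preamplified cDNA and then transposase-made libraries. Tools listed in the submitters' processing notes are RSEM 1.2.28, HISAT2 2.2.1 and DESeq2 1.40.2, with the build GRCm38.p6. The authors deposited estimated counts (18.2% of values not whole), FPKM, TPM and a scaled signal (count divided by 1 factor per library), with their own log2 fold changes, p-values and q-values. The labels name no batch and do not say whether pools came from separate litters or days. No source used here gives the use of strand.

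Estimated counts of all 18257 genes were rounded and fitted in R 4.3.3 by edgeR 4.0.16 (robust quasi-likelihood, TMM, filterByExpr, no covariate). P-values of the 12936 genes kept were adjusted by Benjamini-Hochberg and called at 0.05. An SE was taken from the log2 fold change and its F statistic. TPM of the authors were used for levels between genes and entered no test. Alternatives were DESeq2 1.42.0, limma-voom (limma 3.58.1), other factors and filters, a replicate block and leaving out each library; leaving out A485 libraries 1 and 2, or 3 and 4, was chosen after seeing the data. No pair of replicates agreed within sampling noise: the chi-square divided by its degrees of freedom was 57.8 to 199.3 for A485 pairs and 18.8 to 33.1 for control pairs.

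Members, compartments and lists were chosen with earlier results of these data known. Values in every library are given for members of highest TPM or largest change in each class and a set of standard chaperones, and up to 3 genes of smallest p from each other list. 5 members are placed on an alternative scaffold in the deposited table, and 19 of 88 overlap another protein-coding gene. Code was tested on simulated data.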

Additional observations from a re-analysis of the deposited data

Results flagged for a closer look

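In 2 of 74 groups of 4 libraries examined (37 members in each group), 1 library stood far from the other 3. Chance flags about 1 in 20 groups. Dnajb12 had 32.46 CPM in control library 2, with 27.59 to 28.39 CPM in the other control libraries. Dnajb4 had 0.9688 CPM in control library 1, with 0.5834 to 0.6031 CPM in the other control libraries.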

How the results depend on the processing

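Total-count scaling left 27 of the 37 named members with the same direction and call. It gave 12 cytosolic members higher (7 with TMM factors), 2 TRiC members lower (6), 1 mitochondrial member higher (0) and 0 ER members lower (1), and it turned the sign of Dnajb1 (0.166), Dnajb6 (0.207), Hsf1 (0.058), Hsf2 (0.095) and Hspe1 (0.141). ER members lower numbered 2 with RLE factors, DESeq2 and no filter, 0 with upper-quartile factors, the filter of 5 CPM and the replicate block, and 4 without A485 libraries 1 and 2. The filter of 5 CPM gave 2526 higher genes overall (3839 in the main test, with fewer genes tested), 1 mitochondrial member higher, Dnajb1 at 0.003 and Dnajb6 at 0.042, and left Hspa1a, Hspa1b, Dnaja4 and Dnajb4 untested. Upper-quartile factors gave Dnajb6 0.009. Without A485 libraries 1 and 2, 1 mitochondrial member was higher, Hspa5, Hspb8 and Hspd1 were called higher, Dnajb9 was called lower and Dnajb14 was -0.464. Without A485 libraries 3 and 4, Bag1 was -0.086, Dnajb9 0.098, Hsp90b1 -0.195 and Hspa5 -0.122. Beyond the altered scaling and gene set, the cause was not tested.

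Leaving out each library in turn gave 16 to 19 members higher and 23 to 28 lower, 0 to 1 ER members lower and 4 to 8 TRiC members lower. Dnajb14 then ranged from -0.051 to 0.298 and Bag1 from -0.054 to 0.173. Same-numbered libraries did not deviate together (correlations 0.01, 0.01, 0.1 and 0.07), so the numbers were not taken as pairs. With the replicate block 17 members were higher and 26 lower, with Cct2, Dnajb12 and Dnajb3 lost.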
